A study of Mus musculus with 12 samples.

Results

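The genes described here encode secreted cytokines and growth factors other than interferon-gamma: Il3, Il4, Il10, Il21, Il24, Csf1, Csf2, Lif, Inhba and Mif. They were chosen by name from a table of read counts per gene, in which all 10 were found among 39179 gene IDs. The table holds 4 RNA sequencing libraries of mouse Th1 cells, CD4+ T cells whose hallmark product is interferon-gamma, on a C57BL/6 background: 2 wild-type (WT) and 2 LDHA-KO. LDHA (lactate dehydrogenase A) is the enzyme that makes lactate from pyruvate, and the series title asks how aerobic glycolysis bears on Th1 differentiation. Naive CD4+ T cells of both genotypes had been activated with plate-bound anti-CD3 (5 µg/ml) plus anti-CD28 (2 µg/ml). For the 3 days of culture the medium held IL-12 (10 ng/ml), IL-2 (100 U/ml) and an antibody against IL-4 (10 µg/ml). All cells then received PMA (50 ng/ml) together with ionomycin (1 µM) during a final 4 h with GolgiStop, which holds secreted proteins inside the cell. The sources used here do not give how the Ldha gene was deleted, the age of the mice or how many animals gave each library.

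As background, activated helper T cells secrete cytokines that instruct other cells. IL-3 and GM-CSF (from Csf2) act on blood precursors and myeloid cells through a shared receptor beta chain, and M-CSF (from Csf1) on macrophages. IL-4 is the defining product of Th2 cells, IL-21 helps B cells, and IL-10, which Th1 cells can make after strong stimulation, restrains inflammation. PMA and ionomycin bypass the T cell receptor and drive the protein kinase C and calcium pathways, which act on many cytokine promoters through AP-1, NF-kappaB and NFAT.

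Library totals ran from 919741 to 1293178 counts, so that 1 count was worth 0.773 to 1.09 CPM, the count scaled by library size, and a count of 0 allowed up to 2.32 to 3.26 CPM (3 counts; counting error only). Ldha itself held 1055 and 1006 counts in WT against 42 and 53 in LDHA-KO. All 7 T cell marker genes listed had enough counts to be tested. Cd4 was higher in LDHA-KO (log2 fold change 0.51, edgeR adjusted p = 3.63e-05). Cd28 and Trbc2 were lower (log2 fold changes of -0.53 and -0.55, edgeR adjusted p = 4.10e-05 and 0.0239). The other 4 were not called, and over all tested genes 31.0% were called. The summed level of the 5 Th1 markers was 1999 CPM in each WT library and 658 to 672 CPM in LDHA-KO. Most of that sum was Ifng, at 1583 ± 3.89 CPM in WT against 384 ± 3.13 in LDHA-KO (mean ± SD of 2 libraries). Il12rb2 and Cxcr3 of the same list also fell (edgeR adjusted p = 3.25e-07 and 0.00657), and Tbx21 and Stat4 were not called (log2 fold changes of -0.27 and -0.34). Cxcr3 had enough counts to be tested only with its WT libraries. Of other cell types, the summed markers were 7.91 to 10.7 CPM in WT against 4.52 to 8.81 CPM in LDHA-KO for 5 B cell genes, while 6 mast cell and basophil genes summed to 3 and 5 counts in WT and to 3 and 11 in LDHA-KO. They were 1.53 to 5.54 against 7.04 to 7.91 CPM for 4 NK cell genes, 1.58 to 5.36 against 3.39 to 7.92 CPM for 2 CD8 T cell genes, and 0 against 0 to 1.13 CPM for 4 stromal genes. Cd79b, Ncr1, Klrb1c, Cpa3, Mcpt8, Fcer1a and Ms4a2, which define B cells, NK cells and mast cells or basophils, were at 0 counts in all libraries. The macrophage genes Lyz2 and Adgre1 were at 0 counts in all libraries, while the M-CSF receptor gene Csf1r, on the same list, held 348 to 462 counts. Of the 7 macrophage and monocyte genes on that list, 5 held counts, Csf1r among them. The 7 summed to 437 and 421 counts in WT against 351 and 468 in LDHA-KO. Csf1r alone held 430 and 413 against 348 and 462 of these. The dendritic cell genes Itgax, Flt3 and Siglech held 0 or 1 count per library, Zbtb46 held 8 to 20 and was not called, and Xcr1 fell from 21.4 ± 1.15 to 8.92 ± 0.169 CPM (mean ± SD of 2 libraries; edgeR adjusted p = 0.00599). What part such cells had in the results below was not tested.

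The sources used here do not say which strand was counted, and some values bear on it. The ratio of mt-Nd6 to mt-Cytb counts was 3.72 to 6.21, and mt-Nd6 is the mitochondrial protein gene encoded on the other strand from mt-Cytb. Gapdh, usually an abundant transcript but one with many pseudogene copies, held 13 to 26 counts per library. Actg1, also usually abundant, held 23 to 45. A reversed strand setting would make the counts below those of reads antisense to each gene. Levels are therefore given as counts assigned to a gene, and which strand they came from was not tested.

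The upstream sequences of 5 of the genes are shown because these hold the best-counted changes (Inhba, Lif, Mif) and a pair of neighbouring genes, of which Il3 was called and Csf2 was not. Each is the 250 bases before the RefSeq transcript start on GRCm38.p6, read 5′ to 3′ on the gene's strand: Inhba at chr13:16011601-16011850 (plus), Lif at chr11:4257318-4257567 (plus), Il3 at chr11:54267280-54267529 (minus), Csf2 at chr11:54249900-54250149 (minus) and Mif at chr10:75860278-75860527 (minus). Capitals mark every match, on either strand, to the letters of 4 motifs: the NFAT core GGAAA, the AP-1 site TGANTCA, the cyclic AMP response element (CRE) and the TATA box.
Inhba: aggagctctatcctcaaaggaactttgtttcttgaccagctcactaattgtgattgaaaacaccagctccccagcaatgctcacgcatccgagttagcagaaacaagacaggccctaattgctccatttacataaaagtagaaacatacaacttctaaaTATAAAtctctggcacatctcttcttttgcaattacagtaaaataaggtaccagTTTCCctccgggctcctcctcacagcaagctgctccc
Lif: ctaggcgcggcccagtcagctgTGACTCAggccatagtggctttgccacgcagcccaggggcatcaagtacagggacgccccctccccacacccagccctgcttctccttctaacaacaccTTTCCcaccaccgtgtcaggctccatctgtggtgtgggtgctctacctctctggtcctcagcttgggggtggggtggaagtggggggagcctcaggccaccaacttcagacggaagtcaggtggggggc
Il3: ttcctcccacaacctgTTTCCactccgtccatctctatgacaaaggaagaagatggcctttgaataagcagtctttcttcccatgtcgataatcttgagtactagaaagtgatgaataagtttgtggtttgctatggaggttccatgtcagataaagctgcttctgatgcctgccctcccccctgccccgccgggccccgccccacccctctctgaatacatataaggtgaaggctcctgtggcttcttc
Csf2: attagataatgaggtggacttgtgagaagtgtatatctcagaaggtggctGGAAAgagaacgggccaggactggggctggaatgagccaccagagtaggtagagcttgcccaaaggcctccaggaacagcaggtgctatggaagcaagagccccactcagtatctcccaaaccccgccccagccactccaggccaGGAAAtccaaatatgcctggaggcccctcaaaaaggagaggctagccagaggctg
Mif: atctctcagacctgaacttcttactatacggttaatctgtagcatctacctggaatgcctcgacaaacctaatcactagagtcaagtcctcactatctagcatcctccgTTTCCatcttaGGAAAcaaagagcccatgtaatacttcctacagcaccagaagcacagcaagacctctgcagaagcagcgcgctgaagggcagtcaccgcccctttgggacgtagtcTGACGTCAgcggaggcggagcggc
No marked base belonged to 2 motifs in these 5 sequences. The AP-1 letters occurred in Lif alone of these sequences, starting 228 bases before the transcript start, and are held by 6.75% of 32841 such upstream regions in the mouse table. The CRE letters, which read TGACGTCA on both strands, occurred in Mif alone, at 24 bases, and are held by 1.55%. The TATA box letters TATAAA occurred in Inhba, at 91 bases, against 12.4% of all regions. GGAAA matched 1 or 2 times in each of the 5 and is held by 55.6% of all regions, so its presence sets none of them apart. These matches describe letters, not binding sites. RefSeq upstream sequences were matched for 8 of the 10 genes. The transcript start used for Inhba lies inside its RefSeq gene span, so an upstream start is not covered by the sequence shown.

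Between genotypes, Inhba, Il3, Il10, Il24 and Lif fell in LDHA-KO and Mif rose. Il21 and Csf2 were tested and did not pass, and Il4 and Csf1 had too few counts to be tested. A gene was called at an adjusted p under 0.05 in edgeR's quasi-likelihood test over 9914 genes with enough counts. By that rule 31.0% of all tested genes were called, 15.4% lower and 15.6% higher in LDHA-KO. Il10 and Il24 had enough counts only through their WT libraries, so the test could reach them only as falls, and no count over the tested cytokine genes that holds them is read against these shares. Inhba and Il3 were called with a fall of at least 2-fold, as were 5.11% of all genes, and so were Il10 and Il24. None of the cytokine genes was called with a rise of at least 2-fold, as 3.38% of all genes were. Without overlap between genotypes, Inhba, Il3, Il21 and Lif were lower in LDHA-KO, as 32.6% of all genes were. Csf2 and Mif were higher, as 31.8% of all genes were. Il10 and Il24 did not overlap either but are left out of that reading. DESeq2, an alternative test, called Inhba, Il3 and Lif, where it called 11.0% of all genes. It also called Il10. It did not call Mif and gave Il24 no adjusted p. The split of all calls depended on scaling, with 50.4% higher by TMM factors and 38.3% higher by library totals alone. In these bulk samples fewer producing cells and less RNA per cell cannot be told apart. The labels do not say whether the 2 libraries of each genotype had separate donors or cultures; the p-values rest on the spread of those libraries alone, and that spread may be technical.

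**Figure D1:**
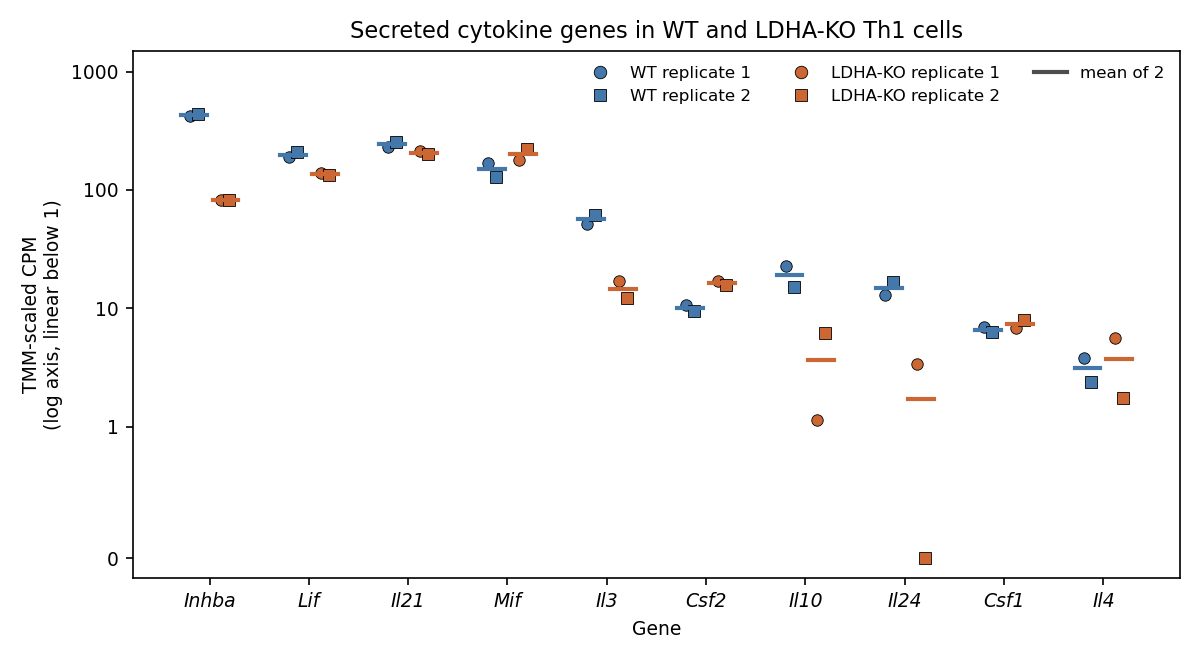
Level of each of the 10 cytokine genes in TMM-scaled CPM (log axis, linear below 1) in the 2 WT (blue) and 2 LDHA-KO (orange) libraries, with bars at the mean of 2. The genotypes separate widely for Inhba (431 against 82.6 CPM), Il3 (56.9 against 14.6), Il10 and Il24, while the points of Csf1 and Il4 mix.

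Inhba encodes the beta A subunit of inhibins and activins, and a dimer of it is activin A, a TGF-beta family ligand. The gene (ENSMUSG00000041324; chromosome 13, 16004256 to 16031609 on GRCm38.p6, as for all positions here) held 554 and 555 counts in WT against 73 and 94 in LDHA-KO. Scaled for library size, these were 424 and 439 CPM against 82.5 and 82.8 CPM. The genotypes lay far apart and the replicates within each differed by little. Inhba fell from 431 ± 10.6 to 82.6 ± 0.169 CPM (mean ± SD of 2 libraries), a 5.21-fold change (edgeR log2 fold change -2.38 with SE 0.11 and adjusted p = 1.03e-21). Over 11 other settings of scaling, filter, tool and libraries the log2 fold change stayed between -2.47 and -2.36. The RefSeq pseudogene model B230303A05Rik covers 70.1% of the gene, so that some counts of Inhba are uncertain. Ifng, the defining Th1 product, fell by 2.04 in log2 units (adjusted p = 2.46e-27 by edgeR), and the ratio of Inhba to Ifng counts was 0.267 and 0.278 in WT and 0.216 and 0.214 in LDHA-KO (exact two-sided permutation p = 0.333, the smallest possible).

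The other activin and inhibin subunit genes had few counts. Inha, Inhbb, Inhbc and Inhbe, which encode the alpha and further beta subunits, held 0 to 3 counts per library. Fst, whose product follistatin binds and blocks activin, was at 0 counts in all libraries, and the related Fstl3 held 0 to 3. Of the 10 genes listed for the activin branch, 6 were tested. Furin, which encodes a protease that cleaves TGF-beta family precursors, fell from 1482 ± 22.7 to 974 ± 45.1 CPM (edgeR log2 fold change -0.60 with SE 0.06 and adjusted p = 2.32e-11). Smad3, a carrier of activin signals into the nucleus, fell by 1.14 in log2 units (adjusted p = 0.0144 by edgeR), and its partner Smad4 rose by 0.43 (edgeR adjusted p = 0.0361). Smad3 had enough counts to be tested only with its WT libraries. Smad3 was not called when WT replicate 1 or either LDHA-KO library was left out (-1.31 to -1.02), and Smad4 lost its call in 10 of 11 other settings. Smad2 (-0.51), the inhibitory Smad7 (0.19) and the co-receptor gene Tgfbr3 (-0.09) did not pass. Of the activin receptor genes, Acvr2a (0.27, SE 0.18) and Acvr1b (0.50, SE 0.47) did not pass either.

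Il3 encodes interleukin-3, a growth factor for blood precursors, mast cells and basophils. The gene (ENSMUSG00000018914; chromosome 11, 54265085 to 54267279) held 68 and 78 counts in WT against 15 and 14 in LDHA-KO, so that the lowest WT library lay well above the highest LDHA-KO library. It fell from 56.9 ± 6.82 to 14.6 ± 3.27 CPM (mean ± SD of 2 libraries), a 3.93-fold change (edgeR log2 fold change -1.98 with SE 0.26 and adjusted p = 4.46e-08), with a range of -2.18 to -1.73 over the other settings. A RefSeq long noncoding model, LOC115487722, covers the whole of Il3, and its strand is not in the table used.

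Csf2 encodes GM-CSF, a cytokine that acts on myeloid cells. It lies 15.2 kb from Il3 on the same strand (ENSMUSG00000018916; chromosome 11, 54247270 to 54249899) and was not called. Its counts were 14 and 12 in WT and 15 and 18 in LDHA-KO, or 10.1 ± 0.865 and 16.4 ± 0.784 CPM (mean ± SD of 2 libraries). Both LDHA-KO libraries lay above both WT libraries, as one or the other direction did for 64.3% of tested genes. The log2 fold change of 0.69 (0.37 SE; adjusted p = 0.157 by edgeR) did not pass the test, and its 95% interval ran from -0.03 to 1.41. The ratio of Il3 to Csf2 counts was 4.86 and 6.50 in WT and 1.00 and 0.778 in LDHA-KO. The ratios did not overlap between genotypes, and the exact two-sided permutation test gave p = 0.333, the smallest that 2 against 2 libraries allow.

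Csf2 lies whole within Gm12223, a long noncoding gene model on the opposite strand (chromosome 11, 54141868 to 54260537), which was looked up after these values were seen. Gm12223 held 156 and 162 counts in WT against 253 and 357 in LDHA-KO, 11.1 to 19.8 times those of Csf2 in each library. It rose from 124 ± 6.18 to 300.2 ± 20.0 CPM (mean ± SD of 2 libraries; edgeR log2 fold change 1.28 with SE 0.10 and adjusted p = 2.53e-13). Because the strand of counting is not given, reads of Csf2 and Gm12223 cannot be told apart, and the level of Csf2 is uncertain.

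Csf1 encodes M-CSF, which keeps macrophages alive, and held 9 and 8 counts in WT against 6 and 9 in LDHA-KO (ENSMUSG00000014599; chromosome 3, 107741048 to 107760469). The libraries overlapped. Gm40121, a noncoding model on the opposite strand, covers the whole gene. The values of its receptor gene Csf1r, given below, come from libraries without counts of the macrophage genes Lyz2 and Adgre1. Of the 7 macrophage and monocyte genes listed, 5 held counts, Csf1r among them. Which cells or strand gave the Csf1r values was not tested. The summed counts of 17 and 15, scaled by library totals, gave a ratio of 1.06 for LDHA-KO over WT with a 95% counting interval of 0.493 to 2.26, which holds a 2-fold change in either direction. Its receptor gene Csf1r rose from 328 ± 1.73 to 400.1 ± 9.45 CPM (edgeR log2 fold change 0.29 with SE 0.08 and adjusted p = 0.00500) and lost its call without LDHA-KO replicate 2 (0.27).

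Il10 and Il24 encode related cytokines and lie 132 kb apart on chromosome 1. IL-10 dampens immune responses. Il10 (ENSMUSG00000016529; 131019845 to 131024970) held 30 and 19 counts in WT against 1 and 7 in LDHA-KO, with no overlap. It fell from 19.0 ± 5.61 to 3.65 ± 3.56 CPM (mean ± SD of 2 libraries; edgeR log2 fold change -2.24 with SE 0.48 and adjusted p = 0.000323). The 2 LDHA-KO libraries differed in its count, and the size of the fall rested on them: the log2 fold change was -3.94 without LDHA-KO replicate 2 and -1.60 without LDHA-KO replicate 1, called in both cases. The former rests on 1 count in LDHA-KO, and the ratio of WT over LDHA-KO was then 17.7, with a 95% counting interval of 3.04 to 715.

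IL-24 signals through receptor chains that it shares with IL-20. Il24 (ENSMUSG00000026420; 130882074 to 130887411) held 17 and 21 counts in WT against 3 and 0 in LDHA-KO. With 38 summed counts against 3, the ratio of WT over LDHA-KO was 10.5, with a 95% counting interval of 3.34 to 53.4 (edgeR log2 fold change -3.22 with SE 0.65 and adjusted p = 0.000122). Without LDHA-KO replicate 1 no count was left in that genotype. Against a floor of 3 counts in the remaining library, the gene was 5.95-fold lower than in WT. The 95% counting interval for that ratio began lower, at 4.61. Without LDHA-KO replicate 2 the ratio was 4.59 (1.46 to 23.2). Il19 and Il20, of the same cytokine family, lie between Il24 and Il10. Il19 held 0 or 1 count per library and Il20 was at 0 counts in all of them.

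Il10ra, which encodes the IL-10 binding chain, rose by 0.65 in log2 units (0.26 SE; adjusted p = 0.0494 by edgeR) but lost its call in 10 of 11 other settings, all 4 that left out a library included. Il10rb held 2 to 8 counts per library. Il20rb and Il22ra1, chains of the IL-24 receptors, held 0 to 5 counts, and Il20ra was at 0 counts in all libraries.

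Il21 encodes interleukin-21, which acts on B cells and T cells through its receptor Il21r and the common gamma chain. Il21 (ENSMUSG00000027718; chromosome 3, 37222759 to 37232636) held 301 and 322 counts in WT against 187 and 228 in LDHA-KO. The levels were 230.3 and 255 CPM in WT against 211 and 201 CPM in LDHA-KO, so both LDHA-KO libraries lay just below both WT libraries. The log2 fold change of -0.24 (0.10 SE, adjusted p = 0.0650 by edgeR) did not pass the test. Its 95% interval, which is not adjusted for the number of genes tested as the p-value is, was -0.43 to -0.04. With library totals alone as the scaling it was called lower (-0.32, edgeR adjusted p = 0.0124). Il21r had a log2 fold change of 0.33 (edgeR adjusted p = 0.0292) and lost its call in 8 of 11 other settings. Il2rg, the common gamma chain gene, did not pass (-0.19) and turned from -0.73 without LDHA-KO replicate 2 to 0.15 without LDHA-KO replicate 1. Gm36168, a noncoding model on the opposite strand, covers 28.2% of Il21.

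Il2, which encodes the T cell growth factor interleukin-2, lies 96.8 kb from Il21. Its levels were 528 ± 29.9 CPM in WT against 559 ± 49.3 CPM in LDHA-KO (mean ± SD of 2 libraries), with overlapping libraries and a log2 fold change of 0.09 (0.07 SE; adjusted p = 0.388 by edgeR). The ratio of Il21 to Il2 counts was 0.454 and 0.463 in WT and 0.403 and 0.338 in LDHA-KO (exact two-sided permutation p = 0.333, the smallest possible).

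Il4, whose product was neutralised by antibody in the culture, held 5 and 3 counts in WT against 5 and 2 in LDHA-KO (ENSMUSG00000000869; chromosome 11, 53612460 to 53618665). The ratio of LDHA-KO over WT was 1.05, with a 95% counting interval of 0.325 to 3.32. The interval holds both a rise and a fall of 3-fold. The neighbouring Th2 cytokine genes Il13 and Il5 held 0 to 2 counts per library. Il4ra, the IL-4 receptor chain gene, had a log2 fold change of -0.30 (0.12 SE; adjusted p = 0.0510 by edgeR) and was called lower with library totals alone (-0.38). Gata3, the master regulator gene of Th2 cells, rose from 8.18 ± 0.740 to 31.9 ± 3.50 CPM (edgeR log2 fold change 1.96 with SE 0.32 and adjusted p = 6.14e-06) in the same libraries. It held 10 and 11 counts in WT and had enough counts to be tested only with its LDHA-KO libraries.

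Lif encodes leukaemia inhibitory factor, a cytokine of the IL-6 family. Lif (ENSMUSG00000034394; chromosome 11, 4257568 to 4272514) held 247 and 263 counts in WT against 122 and 153 in LDHA-KO, and overlaps no other RefSeq gene. It fell from 198 ± 13.4 to 136 ± 2.27 CPM (mean ± SD of 2 libraries), a 1.46-fold change (edgeR log2 fold change -0.54 with SE 0.11 and adjusted p = 0.000201), with a range of -0.63 to -0.47 over the other settings. Osm, which encodes oncostatin M of the same family, lies 16.5 kb away and held 46 and 37 counts in WT against 14 in each LDHA-KO library. Osm fell by 1.21 in log2 units (0.29 SE; adjusted p = 0.00127 by edgeR) and lost its call without LDHA-KO replicate 2 (-1.01, edgeR adjusted p = 0.0504). The ratio of Lif to Osm counts was 5.37 and 7.11 in WT and 8.71 and 10.9 in LDHA-KO (exact two-sided permutation p = 0.333, the smallest possible). Il6st, which encodes gp130, the signalling chain that these cytokines share, rose from 19.5 ± 1.55 to 57.9 ± 5.99 CPM (edgeR log2 fold change 1.56 with SE 0.23 and adjusted p = 6.15e-07). Lifr, the chain that binds LIF, was at 0 counts in all libraries.

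**Figure D2:**
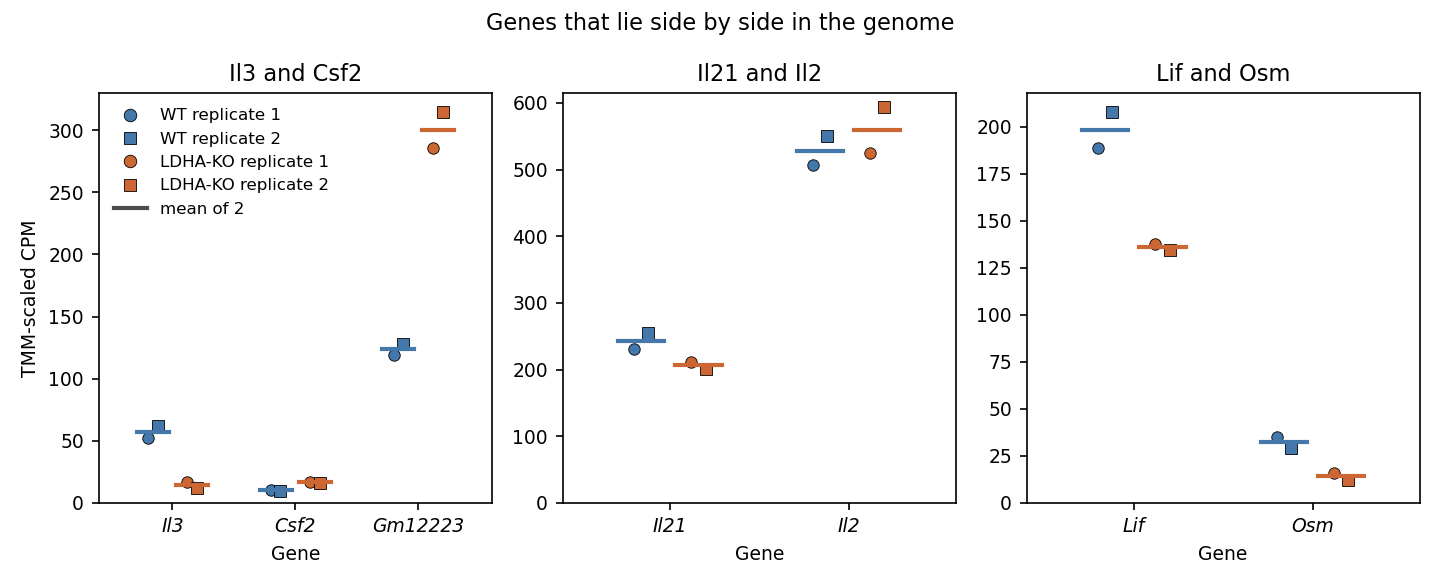
TMM-scaled CPM (linear axis from 0) of genes that lie side by side, in the 2 WT (blue) and 2 LDHA-KO (orange) libraries, with bars at the mean of 2. Il3 is lower in LDHA-KO (14.6 against 56.9 CPM) while the values of Csf2 (16.4 against 10.1 CPM) and of the overlapping Gm12223 (300.2 against 124 CPM) lie higher, Il21 shifts little beside Il2, and Lif and Osm are both lower.

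Mif encodes macrophage migration inhibitory factor, a protein that many cells make without stimulation and that binds CD74. Mif (ENSMUSG00000033307; chromosome 10, 75859353 to 75860277) was the one gene of the 10 to be called higher. Its counts were 222 and 164 in WT and 159 and 254 in LDHA-KO. Scaled, these were 169.9 and 129.7 CPM against 179.8 and 224 CPM, so that the higher WT library lay close to the lower LDHA-KO library. Mif rose from 149.8 ± 28.4 to 202 ± 31.0 CPM (mean ± SD of 2 libraries; edgeR log2 fold change 0.44 with SE 0.12 and adjusted p = 0.00399). DESeq2 did not call it (adjusted p = 0.150), nor did edgeR when WT replicate 2 (0.26) or LDHA-KO replicate 2 (0.27) was left out. Mif has pseudogene copies, of which Mif-ps3 held 0 to 2 counts, and its count is uncertain where reads could map to several copies. Cd74 rose by 0.83 in log2 units (0.25 SE; adjusted p = 0.00807 by edgeR) and lost its call without LDHA-KO replicate 2 (0.57). Cd44, which encodes its partner chain, fell by 0.37 (SE 0.08, edgeR adjusted p = 0.000231). Cxcr4, another MIF receptor gene, fell by 0.99 (edgeR adjusted p = 0.0219) and lost its call without any 1 of the 4 libraries (-1.03 to -0.93).

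**Figure D3:**
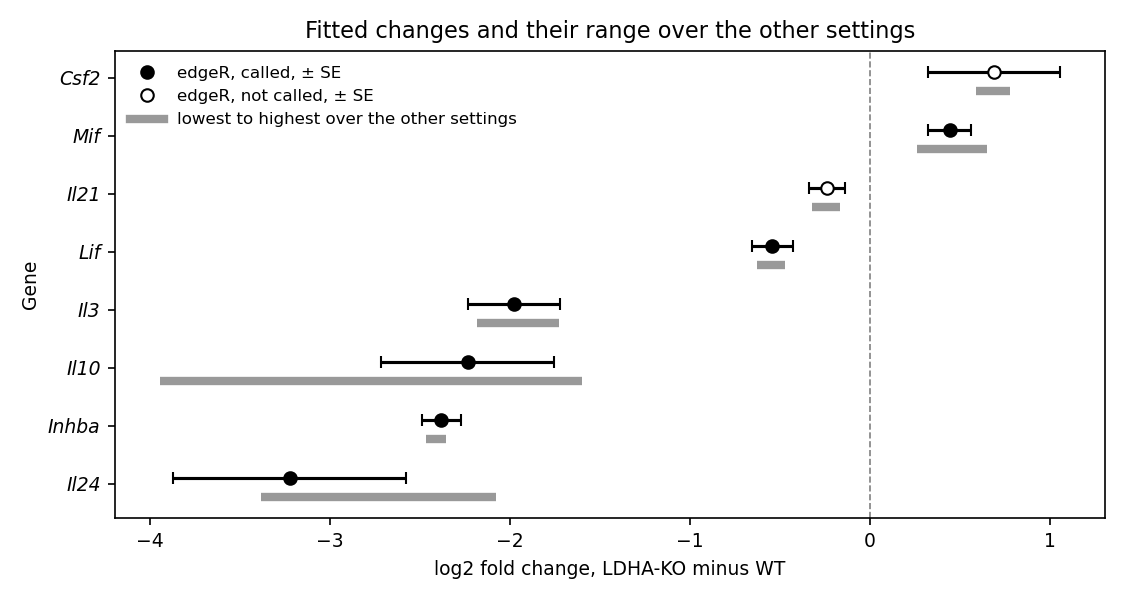
Log2 fold change, LDHA-KO minus WT, of the 8 tested cytokine genes (points, ± SE, filled where called) with the lowest to highest value over the other settings (grey bars; for Il24 without the fit that left it 0 counts in LDHA-KO). Il24, Inhba, Il10 and Il3 lie at or below -1.98, and the bars of Il10 and Il24 are the widest.

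Likeness of response was measured as the distance between 4 log2 values of CPM plus 0.5, each gene centred on its mean over the 4 libraries, among 17 tested cytokine genes. Inhba and Il3 were near each other (0.56), and the gene nearest to Il3 was Il16 (0.47). Lif lay nearest to Pdgfb (0.27) and Tgfb1 (0.28), and Il21 to Vegfa (0.25) and Pdgfb (0.31). Mif lay nearest to Clcf1 (0.38) and Csf2 (0.41). Il10 (1.51 to Inhba) and Il24 (2.34 to Il3) had no near gene. With 4 libraries of 2 genotypes, such a distance mixes the genotype difference with the spread between libraries of a genotype. Il10 and Inhba had near log2 fold changes (-2.24 and -2.38). Il10 held 1 and 7 counts in LDHA-KO, and Il24 held 3 and 0, so a distinct response cannot be read from their distances.

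Beyond the 10, 57 of 61 other secreted cytokine and growth factor genes listed were in the table, and 14 of these held no count in any library, among them Il12a, Il12b and Il17a. Of the 9 that could be tested, 4 fell and 1 rose, where 15.4% of all tested genes fell and 15.6% rose. Their median log2 fold change was -0.38, and that of all tested genes -0.01. Over the other settings 1 to 7 of the list fell and 1 rose in each. Il16, a T cell chemoattractant gene, fell from 75.1 ± 4.50 to 24.8 ± 0.154 CPM (edgeR log2 fold change -1.60 with SE 0.21 and adjusted p = 5.89e-08). Tgfb1, which encodes an inhibitory cytokine, fell by 0.38 (edgeR adjusted p = 0.00155) and Pdgfb by 0.41 (edgeR adjusted p = 0.0143). Pdgfa, another platelet-derived growth factor gene, rose by 1.41 (edgeR adjusted p = 2.37e-05). Tgfb1 lost its call without LDHA-KO replicate 1 (-0.27), and Pdgfb without WT replicate 1 or either LDHA-KO library (-0.44 to -0.32). Among the 48 genes too rare to test, Il1a held 9 counts in each WT library and 0 and 1 in LDHA-KO. Its 95% counting interval was 2.36 to 624 for the ratio of WT over LDHA-KO. Il1a is a single pick from these 48, and others had more counts in LDHA-KO. Ebi3 held 5 and 6 counts in WT against 10 and 7 in LDHA-KO, and Spp1 held 5 and 4 against 11 and 6. The counting intervals of both held a ratio of 1.

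Of 25 genes listed for receptor chains of the 10 products, 13 were tested, 5 rose and 2 fell (15.6% and 15.4% of all tested genes), with a median of 0.29. Over the other settings 1 to 5 rose and 1 to 3 fell. Csf2rb and Csf2rb2, the beta chains for IL-3 and GM-CSF, held 0 or 1 count per library. The alpha chain genes Csf2ra (0.64, SE 0.35) and Il3ra (-0.25, SE 0.32) did not pass.

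The transcription factor genes listed for these promoters moved in both directions: of 33 tested, 12 rose and 6 fell (15.6% and 15.4% of all tested genes), with a median of 0.13. Some of the rises, Gata3 among them, had enough counts to be tested only with their LDHA-KO libraries. The rises are therefore not read against the share of all genes. Over the other settings 8 to 12 rose and 2 to 8 fell. Jun, an AP-1 subunit gene, rose from 164 ± 17.6 to 447 ± 4.37 CPM (edgeR log2 fold change 1.45 and adjusted p = 1.45e-16). Stat3 and Stat5a, which encode carriers of cytokine signals, rose by 0.81 (edgeR adjusted p = 1.32e-12) and 0.61 (edgeR adjusted p = 1.50e-09), and Bhlhe40 rose by 0.34 (edgeR adjusted p = 1.73e-05). Cbfb, the partner of the RUNX factors, fell by 0.77 (edgeR adjusted p = 6.23e-05). Of 12 genes for RNA-binding factors that control decay of cytokine transcripts, 2 fell and 0 rose, with a median of -0.02. The share that fell, 16.7%, was near the 15.4% of all tested genes, and 1 to 3 fell over the other settings. Zfp36l2, which encodes a protein that promotes decay of AU-rich transcripts, fell from 268 ± 32.8 to 158 ± 10.2 CPM (edgeR log2 fold change -0.77 with SE 0.11 and adjusted p = 2.17e-07). Hnrnpd fell by 0.24 (edgeR adjusted p = 0.0387) and lost its call in 9 of 11 other settings.

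**Figure D4:**
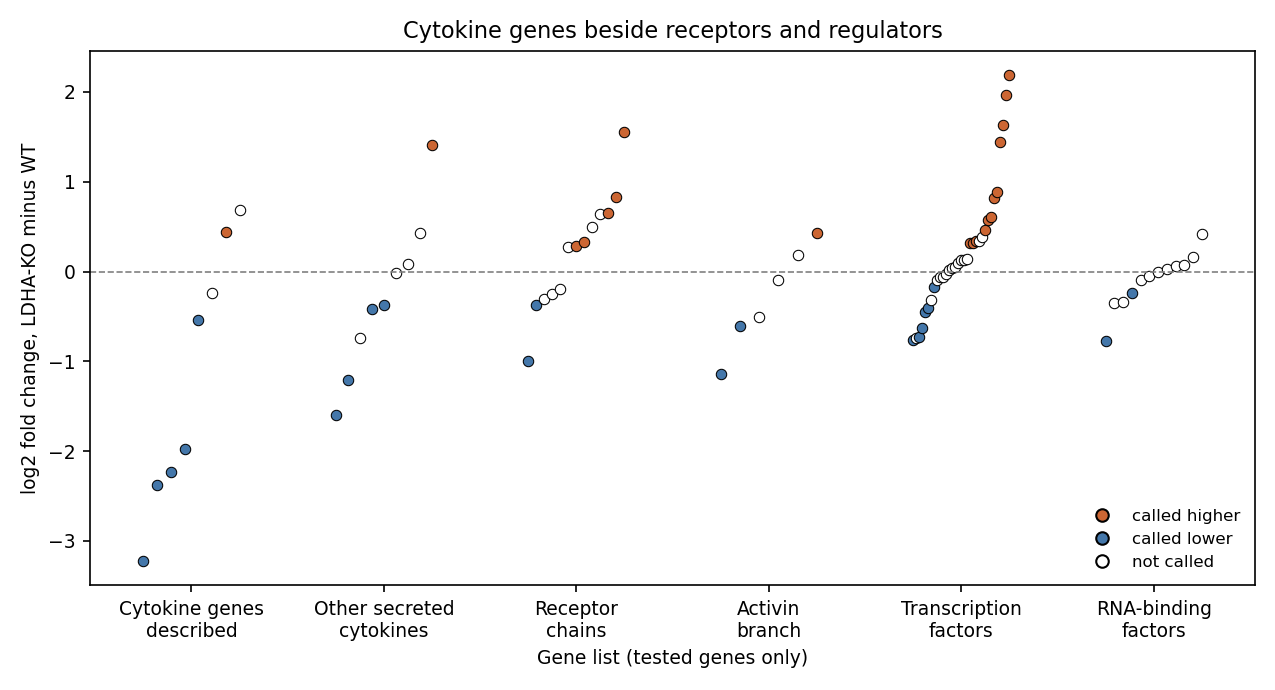
Log2 fold change, LDHA-KO minus WT, of the tested genes among the cytokine genes described and on 5 related lists (orange, called higher; blue, called lower; white, not called). The cytokine genes run from -3.22 (Il24) to 0.69 (Csf2, not called), and the transcription factor genes also spread on both sides of 0. Il10 and Il24 had enough counts to be tested only through their WT libraries.

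The protein-coding genes next to the 10 loci were described from a list of 50, of which 24 were tested. Of these 5 rose and 4 fell, with a median log2 fold change of -0.04. The share called was 37.5%, beside 31.0% of all tested genes, and over the other settings 0 to 5 rose and 0 to 6 fell. Some of the rises, P4ha2 among them, had enough counts to be tested only with their LDHA-KO libraries. The share called is therefore not read against that of all genes. Besides Osm, Mtmr3 near Lif rose by 0.60 (edgeR adjusted p = 0.00187) and Tbc1d10a on its other side fell by 0.62 (edgeR adjusted p = 0.0212). P4ha2, a neighbour of Csf2 and Il3, rose by 0.99 (edgeR adjusted p = 0.0270). In the Il2 and Il21 region, Adad1 rose by 0.69 (edgeR adjusted p = 0.00315) and 4932438A13Rik fell by 0.49 (edgeR adjusted p = 0.0292). Adad1 was called without each library in turn. Mtmr3, Tbc1d10a, P4ha2 and 4932438A13Rik each lost the call without at least 1 library, LDHA-KO replicate 2 among them.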

How the data were processed

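The study holds 12 samples, of which the 4 RNA libraries were used and 8 chromatin immunoprecipitation or input samples were not analysed here. The authors deposited read counts per gene in 1 table. Per the submitters' processing notes, Trimmomatic 0.33, STAR 2.3.0e and HTSeq 0.6.0 are among the tools used on the series, with builds mm10 and GRCm38; the sources used here do not say which of them made the table or how strand was set. Repeated rows of 1557 gene IDs held identical values, so 4195 extra rows were removed, leaving 39179 IDs.

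Counts were scaled by TMM and tested with edgeR 4.0.16 (quasi-likelihood test, default low-count filter, R 4.3.3), with Benjamini-Hochberg adjustment over 9914 genes. DESeq2 1.42.0, other scalings and filters, thinning to the smallest library total, a replicate block and leaving out each library were alternatives. The fit was checked on simulated data. Count ratios carry exact conditional binomial intervals (95%), covering counting error only. The 95% intervals of log2 fold changes come from the SE by a normal approximation, without adjustment over genes. Named were all 10 genes, all tested receptor and activin branch genes, and from each other list at most 6 called genes of smallest adjusted p, plus untested direct partners by their counts. Il1a, Ebi3, Spp1, Il12a, Il12b and Il17a were among the genes named outside this rule. The genes and lists were chosen with earlier results of these data known.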

Additional observations from a re-analysis of the deposited data

How the results depend on the processing

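Depth limited Il4, Csf1 and most other cytokine genes, and 2 libraries a genotype limited every test. Over all genes edgeR called 3076 (1549 higher, 1527 lower) and DESeq2 1048 (573 higher, 475 lower). Leaving out 1 library gave 1973 to 2412 calls, 1018 to 1231 higher and 955 to 1208 lower, the lowest without LDHA-KO replicate 2. Of the 10 cytokine genes, the number called higher went from 1 to 0 in DESeq2 and ranged from 0 to 1 without 1 library. Mif had a log2 fold change of 0.44 (adjusted p = 0.150) in DESeq2 and of 0.26 to 0.65 without 1 library. Il21 was called with library totals alone (-0.32, edgeR adjusted p = 0.0124). The cause was not tested. Il24 had no adjusted p in DESeq2. The sign turned without 1 library for Il2 (-0.0018 to 0.18), Vegfa (-0.047 to 0.025) and Il2rg (-0.73 to 0.15), and of these values the one of -0.73 was called.

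Same-numbered libraries did not deviate together (r = -0.03 across 9914 genes), so the numbers were not taken to pair them. With a replicate block 2803 genes were called (1397 higher, 1406 lower), and the calls of the 10 cytokine genes did not change. DESeq2 also ended the calls of Osm, Tgfb1, Pdgfb, Csf1r, Cd74, Cxcr4, Smad3, Adad1, Mtmr3, P4ha2, Tbc1d10a and 4932438A13Rik.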
